A study of Bos taurus with 42 samples.

Results

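The miR-378 family was scarce in bovine oocytes and cleavage-stage embryos. Its leading member, miR-378, stood among the most abundant miRNAs of morulae and blastocysts, in embryos made by nuclear transfer and by fertilisation alike. The family comprised 4 of the 12345 small RNA entries in the deposited table, each entry being 1 annotation that can pool several sequences. Members were taken as the entries whose first annotated hit begins with miR-378 and whose name carries no mark of a mismatch. They are miR-378 itself, an entry annotated to both miR-378-3p and miR-378-2-5p (miR-378-3p/miR-378-2-5p below), miR-378-5p, and an entry annotated to both miR-378c-5p and miR-378d-3p (miR-378c-5p/miR-378d-3p below). The family was selected on its own log2 values, low up to the 8-cell stage and high from the morula on. Differences between the 2-cell, 8-cell, morula and blastocyst stages are therefore given as a description, with no test.

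Small RNA was sequenced on an Ion Proton in 42 libraries of 12 groups. Nuclear transfer (NT) embryos were made by placing nuclei of serum-starved ear fibroblasts of 1 crossbred bull, Brahma by Spanish, into oocytes, with donor cells of passages 4 to 5. In vitro fertilised (IVF) embryos were made with semen of a Holstein bull. All NT embryos carry the nuclear genome of 1 male, so that production method, genotype and breed differ together. Both kinds of embryo were cultured on bovine cumulus cells, and pools of 20 were collected as 2-cell embryos on day 2, 8-cell embryos on day 3, morulae on day 6 and blastocysts on day 8. The labels speak of 4 pools in 1 place and 3 in another. Cells grown out from blastocysts (blastocyst-derived cells) were also sequenced. NT gave 4 libraries at the 2-cell stage, 4 at the 8-cell stage, 3 as morulae, 4 as blastocysts and 3 as derived cells, and IVF gave 4, 3, 4, 3 and 4. The other groups were 3 libraries of ear fibroblasts and 3 of metaphase II oocytes. Nothing in the labels ties libraries to separate cultures or oocyte batches, so that p-values measure the spread between these libraries, part of which may be technical.

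miR-378 is a mammalian miRNA that lies in an intron of PPARGC1B, the gene of a coactivator of mitochondrial and fatty acid metabolism. It has been studied mostly in muscle, fat and liver, where it acts on energy metabolism. A miRNA hairpin gives rise to 2 arms, of which 1 usually accumulates and the other (the passenger) is mostly lost. In cattle the embryo depends on maternal RNA through the first cleavages, and major transcription of its own genome begins at about the 8-cell stage. The RefSeq gene table holds 5 bovine miR-378 loci. MIR378-1 lies within PPARGC1B, MIR378-2 within CALCR (the calcitonin receptor), MIR378D within MSI2 (an RNA-binding protein) and MIR378C within ZNF521 (a zinc finger protein), while MIR378B lies in no gene.

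The libraries differed in depth and in make-up, which bears on the family's values. Reads recovered from the table ranged from 25119 to 3081186 per library, and reads of bovine miRNA entries from 796 to 2482312. The share of miRNA reads was between 1.48% and 8.88% in oocytes, 2-cell and 8-cell embryos and between 45.1% and 81.8% in blastocyst-derived cells. Of the IVF morulae, replicate 1 stood apart with 64.1% miRNA reads and 0.143% piRNA reads, where replicates 2 and 4 held 4.58% and 4.15% miRNA reads and 80.5% and 74.4% piRNA reads. Replicate 3 of that group was the shallowest library of all, with 796 miRNA reads. Most morula results are given with and without these 2 libraries. NT 2-cell replicate 4 lists all 12345 entries and the others between 423 and 8919 of them, so that small RNAs absent from that library could not appear in the table.

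The leading member, miR-378, was low before the morula stage. On the deposited scale (log2 after size-factor normalisation and variance stabilisation, where 1.37 stands for no reads listed), NT 2-cell embryos held 4.76, 1.37, 5.10 and 4.51 and IVF 2-cell embryos 1.37, 6.11, 6.73 and 6.68. NT 8-cell embryos held 4.32, 5.46, 3.22 and 5.40, and IVF 8-cell embryos 5.00, 5.21 and 5.84. Oocytes held 6.14, 3.86 and 3.54. These values rest on few reads, between 0 and 99 miR-378 reads in any of these libraries and 13, 2 and 2 in the oocytes. NT morulae held 10.45, 9.34 and 10.51, and IVF morulae 10.86, 10.31, 11.71 and 10.01. NT blastocysts held 10.69, 10.73, 11.49 and 10.65, and IVF blastocysts 10.99, 10.01 and 10.73. Every morula and blastocyst library stood above every oocyte, 2-cell and 8-cell library, with no value between 6.73 and 9.34. In bulk libraries, fewer cells that hold a miRNA and less of it per cell cannot be told apart.

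**Figure D1:**
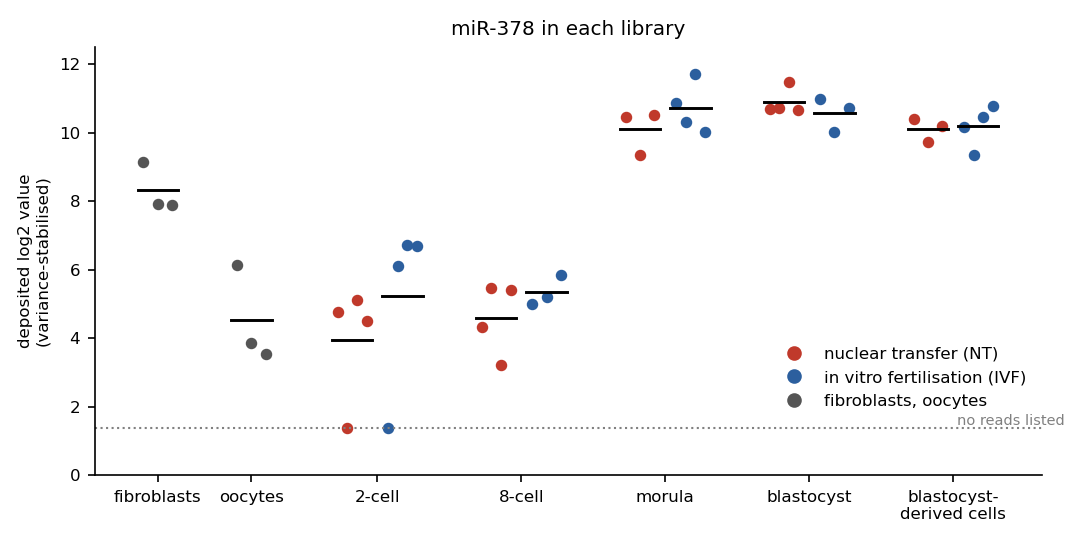
Deposited log2 value of miR-378 (y axis) in each library (points) of the groups on the x axis, NT in red, IVF in blue, fibroblasts and oocytes in grey; the bars are group means and the dotted line marks no reads listed. Morula, blastocyst and derived-cell libraries lie at 9.34 or above, and oocyte, 2-cell and 8-cell libraries at 6.73 or below.

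The step from the 8-cell stage to the morula was the largest of any miRNA for miR-378 in both kinds of embryo. Its mean was 5.50 log2 units higher in NT morulae than in NT 8-cell embryos and 5.37 higher in IVF morulae than in IVF 8-cell embryos, which ranked first of 373 miRNA entries in each. The median miRNA entry differed by -0.02 in NT and -0.21 in IVF. Back on a linear scale, miR-378 averaged 1162 normalised reads in NT morulae and 24.1 in NT 8-cell embryos, a ratio of 48.3. IVF morulae averaged 1874 normalised reads and IVF 8-cell embryos 37.1, a ratio of 50.5. Without IVF morula replicates 1 and 3 that ratio was 30.8, the log2 difference was 4.81, and miR-378 still ranked first. The 8-cell means rest on 76 reads in NT and 138 reads in IVF over all their libraries. No such step was seen before, with 8-cell minus 2-cell differences of 0.67 in NT and 0.13 in IVF.

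The other 3 entries followed the same course at lower levels. miR-378-3p/miR-378-2-5p stood at 7.46, 6.65 and 6.94 in NT morulae, against 1.37, 3.97, 1.37 and 4.26 in NT 8-cell embryos. Its IVF values were 8.89, 5.79, 7.41 and 6.53 in morulae, against 1.37, 2.98 and 3.65 in 8-cell embryos. miR-378-5p, named as a 5p product of the hairpin, was found with 2 reads in 1 of 4 NT 8-cell libraries and with 2 reads in 1 of 3 IVF 8-cell libraries. It held 6.25, 5.78 and 6.02 in NT morulae and 5.73, 5.99, 1.37 and 5.80 in IVF morulae, the value of 1.37 being that of the shallow replicate 3. miR-378c-5p/miR-378d-3p, from the loci within ZNF521 and MSI2 by its name, held 5.50, 4.63 and 4.48 in NT morulae and 6.00, 5.26, 7.18 and 4.73 in IVF morulae. Before that, 3 of its reads were found in NT 8-cell embryos and 8 in IVF 8-cell embryos, each in 1 library.

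Set against the background, these steps were uncommon. All 4 entries lay higher in NT morulae than in NT 8-cell embryos without overlap between libraries, as did 1.07% of the 12039 entries examined and 7.77% of 373 miRNA entries. In IVF, 3 of 4 did so, with 0.166% of all entries and 1.34% of miRNA entries. Among 373 miRNA entries the 4 differences ranked 1, 3, 4 and 6 in NT and 1, 2, 3 and 5 in IVF. Without IVF morula replicates 1 and 3 the IVF ranks were 1, 3, 4 and 6. These counts use the pattern by which the family was picked and are no test of it. From morula to blastocyst the family differed less, by 0.79 for miR-378 in NT and by -0.15 in IVF. The IVF value was 0.41 without IVF morula replicates 1 and 3.

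**Figure D2:**
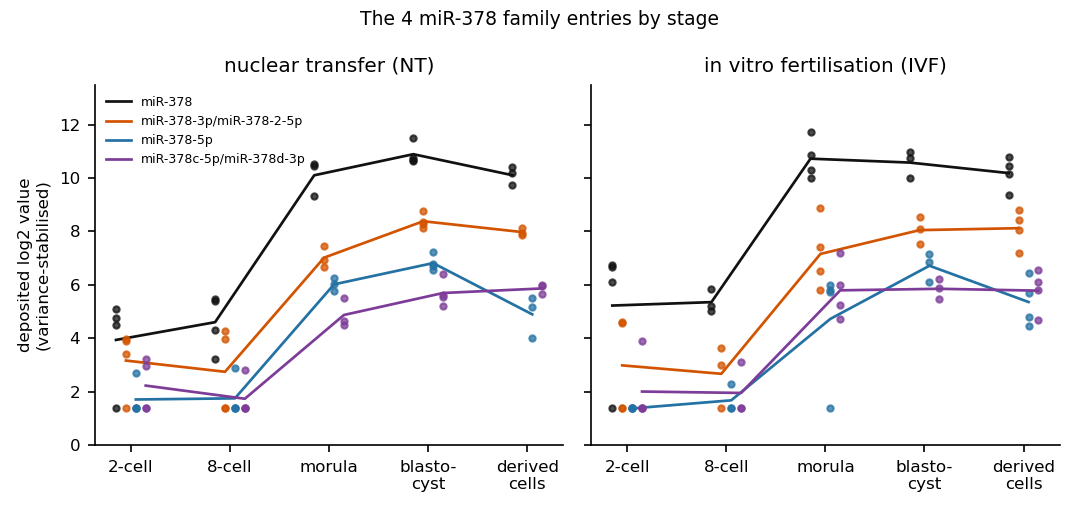
Deposited log2 values (y axis) of the 4 entries by stage (x axis), NT in the left panel and IVF in the right; points are libraries and lines join group means. All 4 lines step up between the 8-cell stage and the morula, and the line of miR-378-5p slopes down most of the 4 from blastocysts to blastocyst-derived cells in both panels.

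**Figure D3:**
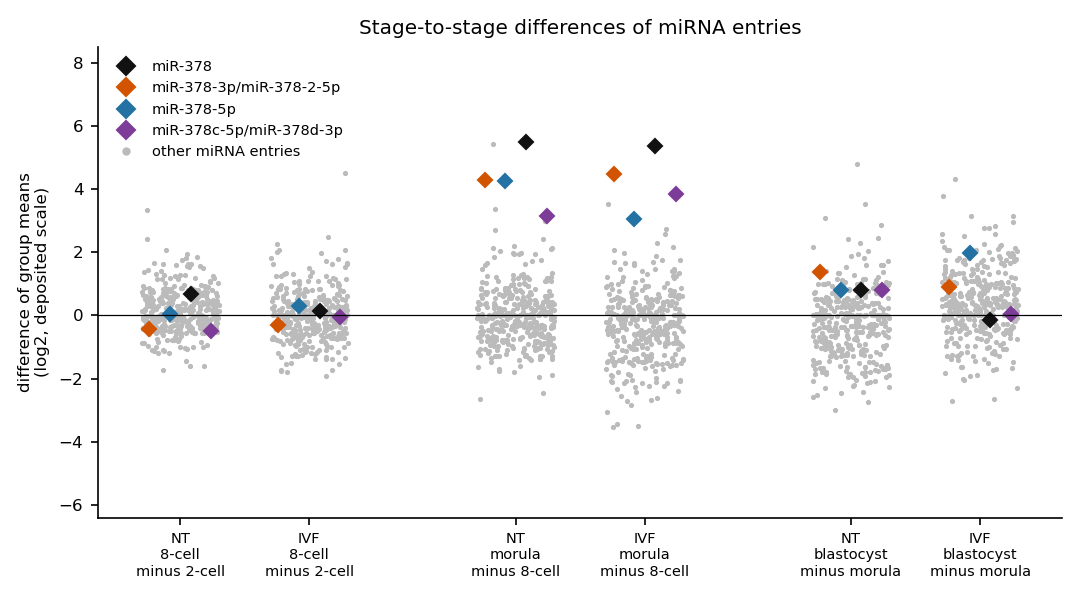
Differences of group means (y axis, log2 on the deposited scale) of 373 miRNA entries for 3 steps of development in NT and IVF (x axis), with the 4 family entries as coloured diamonds and the others as grey points spread sideways. In the morula minus 8-cell columns miR-378 is the highest point, at 5.50 in NT and 5.37 in IVF, and in the 8-cell minus 2-cell columns the family lies within the cloud.

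Ranked by abundance, miR-378 stood in the middle of the list up to the 8-cell stage and near its top in morulae and blastocysts. Among 379 miRNA entries it was number 159 in NT and 98 in IVF 2-cell embryos and number 146 in NT and 107 in IVF 8-cell embryos. It was number 3 in NT and in IVF morulae, number 3 in NT blastocysts and number 4 in IVF blastocysts. The 3 entries below it reached ranks 25, 55 and 87 in NT blastocysts and 30, 61 and 93 in IVF blastocysts. In blastocyst-derived cells miR-378 was number 47 in NT and 43 in IVF, in fibroblasts number 41 and in oocytes number 138.

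A share of miRNA reads does not depend on the deposited size factors, and it showed the same step. The 4 entries together made up 0.0739% ± 0.0560 of miRNA reads in NT 2-cell embryos (SD, n = 4), 0.0870% ± 0.0728 in NT 8-cell embryos (n = 4), 3.94% ± 1.04 in NT morulae (n = 3) and 6.69% ± 0.48 in NT blastocysts (n = 4). IVF embryos held 0.157% ± 0.106 at the 2-cell stage (n = 4), 0.128% ± 0.056 at the 8-cell stage (n = 3), 11.2% ± 16.7 as morulae (n = 4) and 5.14% ± 0.81 as blastocysts (n = 3). The IVF morula mean was set by replicate 3, with 288 family reads of 796, or 36.2% (95% Wilson interval 32.9% to 39.6%). The other IVF morulae held 1.44%, 3.39% and 3.67%, of which the lowest was replicate 1, the library rich in miRNA. Oocytes held 0.0612% ± 0.0583 (n = 3). The family had no reads in IVF 2-cell replicate 1 and NT 2-cell replicate 2, which allows shares of up to 0.0365% and 0.052%. Both held a few reads of miR-378 entries with a mismatch mark, which are not counted here. Reads are not independent molecules, so that intervals and limits cover counting error only.

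**Figure D4:**
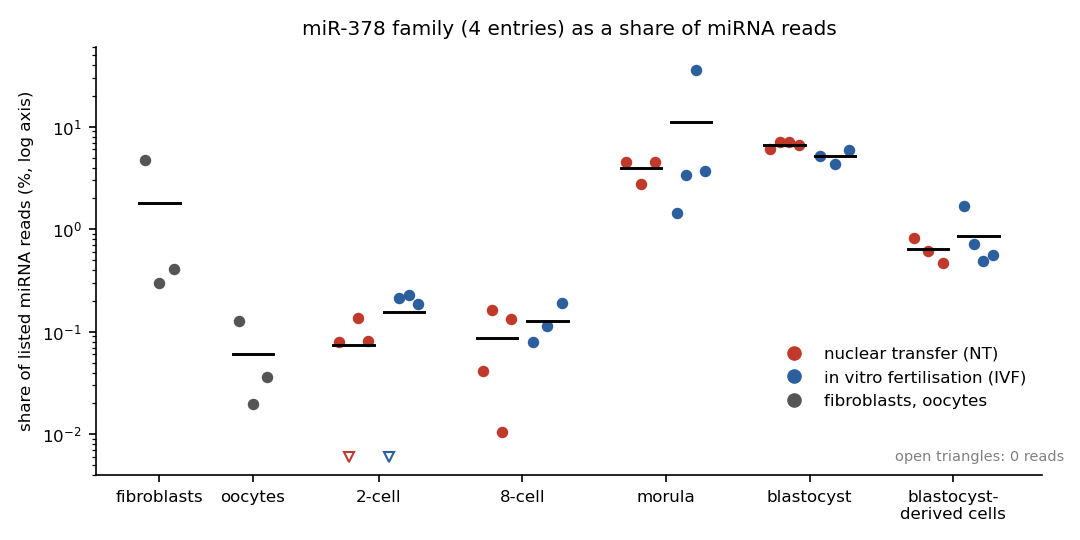
Share of listed miRNA reads taken by the 4 family entries (y axis, percent, logarithmic) in each library (points) by group (x axis), NT in red, IVF in blue; bars are arithmetic means and open triangles mark libraries with 0 family reads. Blastocysts lie between 4.29% and 7.07%, 8-cell embryos at 0.189% or below, and IVF morula replicate 3 stands alone at 36.2%.

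Whether cloned and fertilised embryos differed in the family was tested at 5 stages with limma, 1 model over all 42 libraries, with Benjamini-Hochberg adjustment over 12039 entries. None of the 4 entries passed at any stage, adjusted or at an unadjusted p under 0.05, nor with voom on the recovered reads. With libraries centred on their medians, miR-378-5p passed in morulae (2.49 ± 0.93, SE, limma adjusted p = 0.0448), as did 2417 of 12039 entries. The IVF morulae include the shallow replicate 3, with no miR-378-5p read. Its part in that change was not tested. Of all entries tested, 2.28% passed at the 2-cell stage, 0.00831% at the 8-cell stage and 0.00831% in blastocysts, and 0% in morulae and in blastocyst-derived cells. The NT minus IVF change of miR-378 was -1.29 ± 0.94 log2 units at the 2-cell stage (SE, limma adjusted p = 0.602) and -0.75 ± 1.01 at the 8-cell stage (adjusted p = 0.905). It was -0.63 ± 1.01 in morulae (adjusted p = 0.952), where the median of all entries was 0.31 and centring each library on its median turned the change to 0.57. The change was 0.31 ± 1.01 in blastocysts (adjusted p = 1) and -0.08 ± 1.01 in blastocyst-derived cells (adjusted p = 1). With errors of 1 log2 unit, differences of several-fold could have gone undetected.

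As a share of miRNA reads, miR-378 was higher in NT blastocysts, at 4.76%, 5.67%, 5.76% and 5.15%, than in IVF blastocysts, at 4.08%, 3.36% and 4.71%, without overlap. The difference of the means was 1.28 percentage points (p = 0.0571 in an exact permutation test taken as two-sided, Benjamini-Hochberg p = 0.286 across 5 stages, higher in 4 of 4 NT libraries than in any IVF library). The smallest p these groups allow is 0.0286, or 0.143 after adjustment where 1 stage alone reaches it, so that the adjusted test could not pass on this stage alone. At the other stages the share differed by -0.0884 points in 2-cell embryos (exact permutation p = 0.143), -0.0456 points in 8-cell embryos (exact permutation p = 0.257), -6.81 points in morulae (exact permutation p = 0.886) and -0.174 points in blastocyst-derived cells (exact permutation p = 0.800). Without IVF morula replicates 1 and 3 the morula difference was 0.202 points, of the opposite sign.

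Cleavage embryos were set against oocytes to ask what the embryo starts from. No family entry passed in NT 2-cell embryos, where 2.43% of all entries did, or in IVF 2-cell embryos, where 3.03% did, and none had an unadjusted p under 0.05. These comparisons and those of blastocyst-derived cells share the 2-cell and blastocyst libraries with the pattern that chose the family, and the oocytes precede the same low stretch. miR-378 changed by -0.58 ± 1.01 log2 units in NT 2-cell embryos against oocytes (SE, limma adjusted p = 0.782) and by 0.71 ± 1.01 in IVF 2-cell embryos against oocytes (adjusted p = 0.829). miR-378-5p had no read in any of 3 oocyte and 4 IVF 2-cell libraries, and 2 reads in 1 of 4 NT 2-cell libraries. That library was replicate 4, which lists every entry of the table, so that its reads set no contrast with the others.

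Cells grown from blastocysts differed from blastocysts in the deposited level of miR-378 by less than the error. NT blastocyst-derived cells held 10.41, 9.72 and 10.18, against 10.69, 10.73, 11.49 and 10.65 in NT blastocysts. IVF blastocyst-derived cells held 10.15, 9.36, 10.45 and 10.77, against 10.99, 10.01 and 10.73 in IVF blastocysts. The NT libraries did not overlap and the IVF libraries did. How many of all entries lack overlap was not counted here. With only the groups compared, 1617 of 2085 entries passed the limma threshold in NT. The change was -0.79 ± 1.01 log2 units in NT (SE) and -0.39 ± 1.01 in IVF, and the NT minus IVF difference between these changes was -0.40 ± 1.43. No member passed the limma threshold in NT, where 2.87% of all entries did, in IVF, where 5.17% did, or in the difference, where 0% did. The choice of the family used the blastocyst values, so that these changes are a description and nothing is rested on the counts. As a share of miRNA reads the family was lower in the derived cells, at 0.636% ± 0.181 in NT (n = 3) against 6.69% ± 0.48 in NT blastocysts (n = 4), and at 0.866% ± 0.562 in IVF (n = 4) against 5.14% ± 0.81 in IVF blastocysts (n = 3). Beside these values, the miRNA share of listed reads was 66.0% to 78.9% in NT derived cells and 11.7% to 20.3% in NT blastocysts, and 45.1% to 81.8% in IVF derived cells and 9.88% to 18.0% in IVF blastocysts. With CPM of listed miRNA reads, the miR-378 change was -3.48 in NT and -2.79 in IVF.

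miR-378-5p, named as a 5p product, was the member that stood lowest in derived cells relative to blastocysts. It held 4.02, 5.49 and 5.17 in NT blastocyst-derived cells, against 6.79, 6.54, 7.22 and 6.70 in NT blastocysts. In IVF it held 4.79, 4.47, 6.46 and 5.70 in derived cells, against 7.17, 6.12 and 6.85 in blastocysts. The NT libraries did not overlap, while 1 IVF derived-cell library lay above the lowest IVF blastocyst library. The share of all entries without overlap was not counted. The difference was -1.92 ± 0.74 log2 units in NT and -1.36 ± 0.74 in IVF (SE). Since high blastocyst values were among those that chose the family, a lower value in derived cells is given as a description. Whether the NT difference passed the threshold depended on which libraries entered the shared estimate of the spread, and nothing is rested on it.

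The proportions of the entries can be read within a library, free of any scaling between libraries. They compare annotations, of which miR-378 names no arm and miR-378-3p/miR-378-2-5p names both. For every 100 miR-378 reads, miR-378-5p had 2.77 ± 1.97 reads in NT derived cells (SD, n = 3) against 5.70 ± 0.70 in NT blastocysts (n = 4), and 3.32 ± 1.76 in IVF derived cells (n = 4) against 6.56 ± 0.29 in IVF blastocysts (n = 3). Neither pair of groups overlapped, with 4.78 as the highest NT and 5.92 as the highest IVF derived-cell value against lowest blastocyst values of 5.01 and 6.29. miR-378-3p/miR-378-2-5p went the other way. It had 22.7 ± 3.7 reads per 100 in NT derived cells against 17.4 ± 2.2 in NT blastocysts, and 23.6 ± 1.5 in IVF derived cells against 17.0 ± 1.1 in IVF blastocysts, again without overlap. NT morulae held 11.8 ± 3.4 of its reads per 100 (n = 3). IVF morula replicates 2, 3 and 4 held 3.97, 4.92 and 8.51, while replicate 1 held 25.4, a value of the size seen in derived cells. The values of replicates 2, 3 and 4 rest on only 12, 13 and 69 reads of that entry. No test was run on these ratios, which combine 2 members. How often ratios of other entries lack overlap between these groups was not counted. The 8-cell libraries held at most 15 reads of miR-378-3p/miR-378-2-5p, and their ratios are not given.

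**Figure D5:**
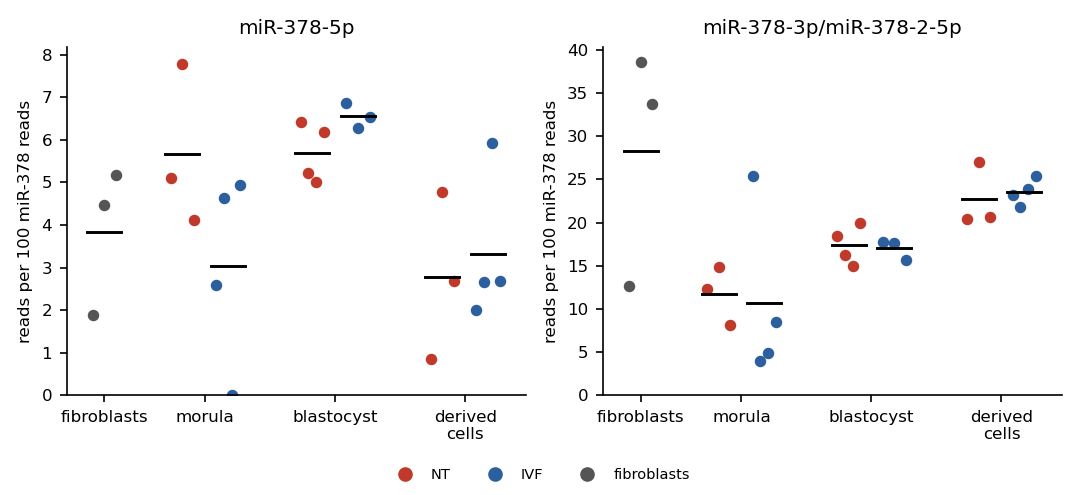
Reads of miR-378-5p (left panel) and of miR-378-3p/miR-378-2-5p (right panel) per 100 miR-378 reads (y axes, from 0) in fibroblasts, morulae, blastocysts and blastocyst-derived cells (x axis); points are libraries, NT in red and IVF in blue, and bars are means. Within NT and within IVF, derived cells lie below blastocysts on the left and above them on the right. IVF morula replicate 1 stands at 25.4 on the right.

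Ear fibroblasts, the cell type that donated the NT nuclei, held more of the family than oocytes did. Low oocyte values were known when the family was picked, so that this comparison is not independent support for its direction. miR-378 stood at 9.13, 7.92 and 7.89 in fibroblasts, against 6.14, 3.86 and 3.54 in oocytes, without overlap. It rose by 3.80 ± 1.08 log2 units (SE, limma adjusted p = 0.00259). miR-378-3p/miR-378-2-5p rose by 3.47 ± 0.93 (adjusted p = 0.00137) and miR-378c-5p/miR-378d-3p by 2.20 ± 0.80 (adjusted p = 0.0210). miR-378-5p stood at 3.93, 3.94 and 4.07 in fibroblasts and had no read in any oocyte library, where the fitted value (adjusted p = 0.00514) sets a few reads against 0. With that entry counted, 4 of 4 passed, as did 1.36% of 12039 entries and 13.1% of miRNA entries, in the higher direction, while the median entry changed by -0.97. As oocyte libraries held only 23 family reads in all, the size of these changes is loosely set. For miR-378-5p no fold can be given, and a difference cannot be told from the depth of the oocyte libraries, since its fibroblast mean of 11.0 normalised reads lies below the 13.4 that 3 reads per oocyte library would be worth. The calls were lost under library weights, where the error of the miR-378 change grew to 11.8, and only miR-378-5p passed with CPM of listed miRNA reads. Leaving out fibroblast replicate 1, oocyte replicate 3 or oocyte replicate 4 lost the call of miR-378c-5p/miR-378d-3p. As a share of miRNA reads the fibroblast libraries held 4.75%, 0.296% and 0.410%, the first in replicate 1, which had 3.42% miRNA reads, against 41.2% and 37.9% in the others.

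NT blastocyst-derived cells lay above fibroblasts in miR-378 by 1.79 ± 1.08 log2 units (SE, limma adjusted p = 1) and IVF blastocyst-derived cells by 1.87 ± 1.01 (adjusted p = 1). Neither passed, nor did any other member, with 0.673% of all entries called in NT and 0.307% in IVF. The fit was unpaired, although same-numbered IVF derived-cell and fibroblast libraries deviated together. Every derived-cell library stood above every fibroblast library in miR-378, the closest pair being 9.36 and 9.13. The share of all entries that do so was not counted. With CPM of listed miRNA reads the changes were -0.36 in NT and -0.07 in IVF, of the opposite sign. In the 12 comparisons other than fibroblasts against oocytes, 0 of 48 member tests passed and 1 had an unadjusted p under 0.05. That 1 was in NT blastocyst-derived cells against NT blastocysts. Comparisons with blastocysts use values that chose the family, so that the count is a description.

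Markers of other cell types were read beside the family. Of 7 fibroblast marker miRNAs (among them miR-143, miR-145, miR-199a and miR-214), all had entries, 13 in number. In fibroblasts against oocytes 10 of these rose and 3 fell, where 13.1% of all miRNA entries rose and 19.0% fell. The falling ones included miR-10b-5p (-6.52 ± 1.03, limma adjusted p = 1.68e-07), and the rising ones miR-145 (5.14 ± 1.09, adjusted p = 5.65e-05). miR-202, a miRNA known from gonads, stood at 11.91 in fibroblast replicate 3, against 1.37 and 1.71 in replicates 1 and 4 and 9.37, 6.94 and 7.0 in oocytes. Whether fibroblast replicate 3 or IVF morula replicate 1 holds RNA of other cells was not tested. Without fibroblast replicate 3, the change of miR-378 against oocytes was 4.00 ± 1.20. From 8-cell embryos to morulae the summed fibroblast markers did not step up with the family in NT, at 349 to 387 normalised reads in NT morulae and 403 to 987 in NT 8-cell embryos. IVF morulae held 178 to 4335 and IVF 8-cell embryos 354 to 400, the top value being replicate 1. By entry, 6 of 13 fibroblast markers were higher in NT morulae than in NT 8-cell embryos (median difference -0.23), and 8 of 13 were higher in IVF morulae than in IVF 8-cell embryos (median 1.11). Their part in the IVF values was not tested, and the step of miR-378 stood at 4.81 without replicates 1 and 3.

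Cumulus cells were present in culture. Of 7 cumulus and granulosa marker miRNAs, 5 had entries (10 in number), while miR-224 and miR-383 had none. Their sum was 2826 to 4132 normalised reads in NT morulae and 1356 to 10221 in NT 8-cell embryos, and 635 to 17905 in IVF morulae and 3885 to 8801 in IVF 8-cell embryos, mostly miR-21-5p. By entry, 3 of 10 were higher in NT morulae than in NT 8-cell embryos (median difference -0.59, from -1.63 to 0.83). In IVF 3 of 10 were higher (median -0.53, from -3.05 to 1.61). Among the 10, miR-212-3p was at 0 in both kinds of morula. Against oocytes, miR-132-3p passed in IVF 2-cell embryos (2.38 ± 0.69, SE, limma adjusted p = 0.0355), and 0 of the 10 passed in NT 2-cell embryos. Muscle miRNAs, which share tissues with miR-378, followed another course. Their 8 entries summed to 0 to 169 normalised reads in NT 2-cell embryos and 0 to 273 in IVF 2-cell embryos, where the 4 family entries summed to 0 to 43.0 in NT and 0 to 130 in IVF. They summed to 13.4 to 36.8 in NT morulae and 0 to 74.8 in IVF morulae, and to 0 in all 3 oocyte libraries. The miR-133a-3p entry was the 1 muscle entry that passed the test in 2-cell embryos against oocytes, by 3.43 ± 0.93 log2 units in NT (SE, limma adjusted p = 0.0257) and by 3.48 ± 0.93 in IVF (adjusted p = 0.0208), against oocyte libraries with none of its reads.

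miRNAs known for roles in metabolism did not follow the family as a group. Of 24 entries for 13 such miRNAs, 14 were higher in NT morulae than in NT 8-cell embryos, with a median difference of 0.16, and 7 were higher in IVF morulae than in IVF 8-cell embryos, with a median of -0.28. No such entry passed between NT and IVF embryos at any stage. In blastocyst-derived cells against blastocysts 7 rose and 1 fell in NT, with a median change of 1.62, and 7 rose and 1 fell in IVF, with a median of 1.74, beside medians of 0 over all entries. Of all miRNA entries 22.5% rose in NT and 20.4% in IVF. Of the 13 fibroblast markers 9 rose in NT and 10 in IVF derived cells, none falling, and miR-143-3p rose by 6.59 ± 0.95 in NT (SE, limma adjusted p = 1.56e-06) and by 7.57 ± 0.95 in IVF (adjusted p = 6.5e-08). Their part in the miR-378 values of derived cells was not tested. In fibroblasts against oocytes 3 of 24 rose and 3 fell, where 13.1% of all miRNA entries rose and 19.0% fell. Among them were the liver miRNA miR-122-5p (-5.08 ± 0.92, limma adjusted p = 3.23e-06) and miR-143-3p (4.27 ± 1.02, adjusted p = 0.000313), which is also a fibroblast marker.

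The miRNA entries whose log2 values across the 42 libraries most resembled those of miR-378 were miR-339a (Pearson r = 0.79), miR-1306-5p (0.77), miR-7858-5p (0.74), miR-6119-5p (0.74), miR-191 (0.69) and miR-196a (0.67), out of 369 compared. miR-138-1-5p (-0.85), miR-106-5p (-0.82) and miR-11986-3p (-0.79) were least alike. The mean of miR-138-1-5p was 4.75 in NT morulae against 7.39 in NT 8-cell embryos, 3.83 in IVF morulae against 6.50 in IVF 8-cell embryos, and 8.32 in oocytes. Among the 4 family entries r was between 0.80 and 0.94. These correlations describe libraries that share groups and depth, and are given with no p.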

How the data were processed

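The deposited table holds log2 values made by the authors by DESeq2 normalisation and variance stabilisation after trimming with Trim Galore, with builds bosTau8 and UMD3.1, per the submitters' processing notes; of versions, aligner and counting steps the sources used here give nothing. Inverting the transformation gave whole reads for 188126 of 188126 values above the lowest (tolerance 0.01 reads), with the smallest value of each library set to 2 reads, on which the absolute scale of reads rests. The members and lists were chosen with earlier results of these data known. Tested were the 12039 entries, all 4 members among them, that exceeded the lowest value by 1 log2 unit or more in 3 or more libraries. limma 3.58.1 in R 4.3.3 fitted 1 model over 12 groups with the prior variance following mean level (residual degrees of freedom 30, prior 49.5 at the median), and p-values were adjusted by Benjamini-Hochberg within each comparison, at 0.05. The fit was tested on simulated data. CPM (counts per 1e6 listed reads, computed here) was an alternative scale. Named were all members, the 6 most and 3 least similar miRNA entries, and up to 3 called list members per list and comparison, of which the text gives some.

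The exact permutation tests of shares, and the shares and stage differences without IVF morula replicates 1 and 3, were chosen after seeing the data. Same-numbered libraries of IVF blastocyst-derived cells and fibroblasts deviated together (r = 0.46, 0.40 and 0.19) and, by the rule used, count as pairs. The main fit did not pair them, and no paired test of that comparison was run. The replicate block was 1 term shared by all groups. In no other comparison were all correlations over 0.1. Loci and the genes that span them come from the RefSeq table of another assembly (ARS-UCD2.0), so that no coordinates are given. Of the lists, miR-133b, miR-206, miR-208a, miR-208b, miR-33b, miR-224 and miR-383 had no entry of their own. Sequences of the members are not used here.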

Additional observations from a re-analysis of the deposited data

Results flagged for a closer look

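In 30 checks of 6 groups of 4 libraries (4 entries and the family share), 9 had a library far from the others of its group. The 5% chance rate of the rule does not hold for groups with libraries tied at 1.37, where any single value above it is flagged. The count of flags is therefore not set against chance. miR-378 was at 1.37, with no reads listed, in IVF 2-cell replicate 1 and at 1.37 in NT 2-cell replicate 2. miR-378-5p was above the lowest value in only 1 library of its group in NT 2-cell replicate 4, at 2.71, and in NT 8-cell replicate 2, at 2.88. miR-378c-5p/miR-378d-3p was so in IVF 2-cell replicate 3, at 3.90, and in NT 8-cell replicate 4, at 2.82. NT 2-cell replicate 4 lists all 12345 entries, so that a value above the lowest there was fixed by the make-up of the table. In the shallow IVF morula replicate 3, miR-378-5p was at 1.37 and the family took 36.2% of miRNA reads. miR-378 stood at 11.49 in NT blastocyst replicate 3, against 10.65 to 10.73 in the other 3.

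The 3 miR-378 entries with a mismatch mark, which no comparison used, held 25225 reads (miR-378d-3p), 8572 reads (miR-378b-3p with miR-378d-3p) and 1279 reads (miR-378c-5p with later marked hits) over all libraries. Together they averaged 10.6% of the reads of all 7 such entries in NT morulae and 16.5% in IVF morulae, 17.7% in NT and 19.2% in IVF blastocysts, and 27.2% in NT and 27.8% in IVF blastocyst-derived cells. Before the morula stage, where reads were few, they averaged 51.5% in NT and 47.4% in IVF 2-cell embryos. They averaged 45.9% in NT and 47.7% in IVF 8-cell embryos, 34.3% in oocytes and 37.0% in fibroblasts. IVF 2-cell replicate 1 and NT 2-cell replicate 2, without family reads, held only such reads. Leaving the marked entries out thus takes a larger part from early embryos than from morulae, which enlarges the step.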

How the results depend on the processing

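Each comparison was refitted under 12 other settings and without each library. In 8 of the 13 comparisons the number of members called (0) was the same under every setting run. It became 1 in NT against IVF morulae with libraries centred on their medians, where 2417 of 12039 entries passed. In NT blastocyst-derived cells against NT blastocysts it became 1 with only the groups compared, where 1617 of 2085 entries passed. It became 1 there also without IVF morula replicates 1 and 3, where 801 of 12036 entries passed. Under library weights it became 4 in IVF derived cells against fibroblasts (600 of 12039 entries passed) and 3 in NT (633 of 12039). For fibroblasts against oocytes it was 4, and 3 to 4 without single libraries. There it was 1 with CPM of listed miRNA reads, where 123 of 582 entries passed. Library weights, whose estimation gave a convergence warning, left 0, where 4674 of 12039 entries passed. The sign of the miR-378 change turned to 0.57 in NT against IVF morulae (median centring), to -0.24 in IVF 2-cell embryos against oocytes and to -0.072 in IVF and -0.36 in NT derived cells against fibroblasts (CPM of miRNA reads). Without single libraries it ranged from -0.36 to 0.11 in NT against IVF derived cells and from -1.07 to 0.28 in NT 2-cell embryos against oocytes. The cause of these changes was not tested.

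The family share of miRNA reads was higher in IVF morulae than in IVF 8-cell embryos by 6.45 as a log2 ratio of means, by 4.47 to 6.85 without single libraries and by 4.79 without IVF morula replicates 1 and 3. In blastocysts against 8-cell embryos the log2 ratio was 6.27 in NT, or 8.30 as a share of all listed reads, and 5.33 in IVF, or 7.17 as a share of all listed reads and 4.71 with mismatched forms added. With the replicate number as a block the members called were 0 in each comparison and 4 in fibroblasts against oocytes, as without it. Counts over all entries moved by over 1.5 times: fibroblasts against oocytes gave 5029 (123 to 5807 over settings), derived cells against blastocysts 345 (70 to 3548) in NT and 622 (42 to 11104) in IVF, derived cells against fibroblasts 81 (26 to 633) in NT and 37 (0 to 600) in IVF, 2-cell embryos against oocytes 293 (2 to 697) in NT and 365 (5 to 544) in IVF, and NT against IVF 275 (0 to 878), 1 (0 to 67), 0 (0 to 3813), 1 (0 to 619) and 0 (0 to 111) from 2-cell embryos to derived cells. The NT minus IVF difference between derived-cell changes gave 0 (0 to 618). Under 100 miR-378 reads in each library before the morula stage limit every early value.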
